A study of Mus musculus with 8 samples.

Results

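The interaction of genotype with doxorubicin asks, gene by gene, whether the heart of a mouse labelled as lacking metallothionein answered doxorubicin (DOX) differently from the heart of a wild-type mouse. It was computed for every probe set as the DOX minus saline difference in MT-/- less the DOX minus saline difference in MT+/+, on the log2 scale, so a positive value means a larger rise or a smaller fall in MT-/-. All 8 arrays of the series entered, and 45037 of the 45101 probe sets on the array were members, the other 64 being the manufacturer's controls. Of these, 24751 passed the filter on low signal and were tested, and they covered 13008 named genes.

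RNA from whole mouse hearts was hybridised to 1-colour Affymetrix arrays. The labels give male mice aged 6 to 8 weeks in 4 groups of 2 arrays, each array called a biological replicate. MT+/+ mice (wild type) and MT-/- mice (labelled null for metallothionein I and II) received either a single intraperitoneal injection of DOX at 15 mg/kg or the same volume of saline, and hearts were collected on day 4. The labels do not say how the null alleles were made, nor which strain the mice were. No label says whether hearts were pooled, so the p-values measure the spread between these arrays.

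Metallothioneins are small, cysteine-rich proteins that bind zinc and copper and react with oxidants. Metals induce their genes through the zinc-sensing factor MTF1, and glucocorticoids and inflammatory signals also induce them. DOX is an anthracycline that poisons topoisomerase II, cycles electrons at mitochondria to give reactive oxygen, and damages heart muscle. Mice that lack metallothionein have been used to ask whether the protein protects the heart from this drug.

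Array medians of the deposited signal lay between 80.03 and 87.40, and correlations between the 2 arrays of a group were 0.976 to 0.984. The ratio of 3' to 5' beta-actin signal, a measure of RNA integrity, ran from 0.913 to 1.24. In each genotype it was lower on the DOX array than on the saline array of the same replicate number. In each group it was higher on the array numbered 2, with 0.913 and 1.18 on the MT-/- DOX arrays. The part of this ratio in the results was not tested. Markers that define heart muscle cells were strong on every array, and the signal summed over all 11 of them ranged from 140442 to 155039. The signal of the genes stated to be inactivated was not lower on the arrays labelled MT-/-. Which parts of Mt1 and Mt2 were altered is not stated, so their signal checks nothing, and the genotypes below are those of the labels.

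No probe set passed an adjusted p of 0.05 for the interaction in limma (0 of 24751, 0%), and the smallest adjusted p was 0.901. At an unadjusted p under 0.05 there were 573 probe sets (2.32%), 272 with a higher and 301 with a lower DOX change in MT-/-. Arrays that share a replicate number also deviated from their group means together, and when that number entered the fit as a block, 1723 probe sets had an unadjusted p under 0.05 and 1 passed the adjusted threshold (0.00404%). That probe set measured Lcn2, with an adjusted p of 0.0222 in limma with the block, and the next smallest adjusted p was 0.138. The median standard error of an interaction was 0.21 log2 units, and its 95% interval, before any correction, reached a median of 0.48 to either side. Differences under about that size could not be told from 0 for a typical gene with 2 arrays per group. After correction over 24751 probe sets far larger differences also went uncalled, such as 2.71 for Lcn2 (adjusted p = 0.901 in limma without the block).

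The DOX changes of the 2 genotypes, which share no array, correlated at r = 0.794 across the 24751 probe sets, which are not independent replicates. DOX altered 613 probe sets in MT+/+ (2.48%, or 2740 with the block) and 1538 in MT-/- (6.21%, or 4188 with the block). The 497 probe sets called in both were 81.1% of the MT+/+ calls and 32.3% of the MT-/- calls, and 0 of them moved in opposite directions. Among the 1041 probe sets called in MT-/- and not in MT+/+, 174 had an unadjusted interaction p under 0.05, and among the 116 called in MT+/+ and not in MT-/-, 36 did. With 1 array left out in turn the counts ran from 23 (without the second MT+/+ DOX array) to 759 in MT+/+ and from 376 (without the second MT-/- saline array) to 1998 in MT-/-. A call in a single genotype therefore carried a measured difference between the genotypes for a minority of these probe sets.

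Averaged over the genotypes, DOX altered 3433 probe sets (13.9%, or 6702 with the block), and the change was larger in MT-/- for 2334 of them (68.0%). The falls were larger in MT-/- for 1286 of 1692 and the rises for 1048 of 1741. The median size of the change was 0.59 log2 units in MT-/- and 0.51 in MT+/+, and the sign differed between the genotypes for 3 probe sets. Taken by replicate number, the share with the larger change in MT-/- was 59.1% in the arrays numbered 1 and 69.9% in those numbered 2. The share was 81.9% without the first MT-/- DOX array and 59.0% without the second, so its size moved with those arrays. The value of the interaction itself, taken separately within each number, correlated at r = 0.217 between the numbers across probe sets.

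**Figure D1:**
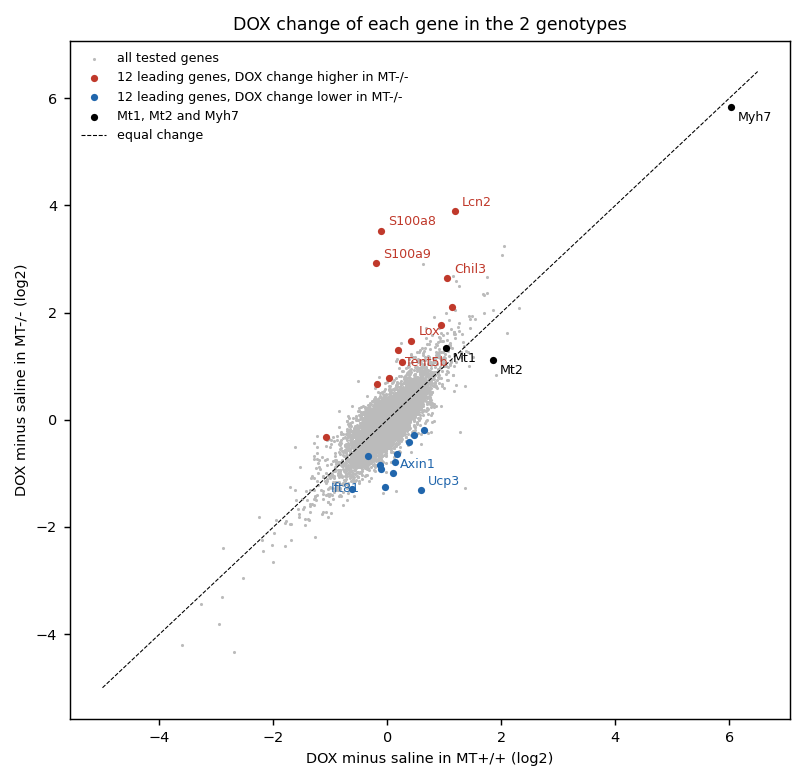
Each point is 1 of 13008 tested genes, with its DOX minus saline difference (log2) in MT+/+ on the horizontal axis and in MT-/- on the vertical axis, and the dashed line marks equal change. Myh7 lies near the line at the far upper right, whereas Lcn2, S100a8 and S100a9 lie above it and Ucp3 below it.

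The genes with the smallest interaction p among those whose DOX differences did not overlap between the genotypes were taken as leading genes, 12 in each direction. No overlap means that every DOX minus saline difference between arrays in MT-/- lay above, or below, every such difference in MT+/+; of all tested genes, 918 met this upward (7.06%) and 895 downward (6.88%). None of the 24 passed an adjusted p of 0.05 without the block, so they are described and not called. They were chosen for a difference between the genotypes, so their pattern is a description. For 13 of the 24 the estimated change had the same direction in both genotypes and was larger in MT-/-, for 10 the directions were opposite, and for C1qa the fall was smaller in MT-/-.

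**Figure D2:**
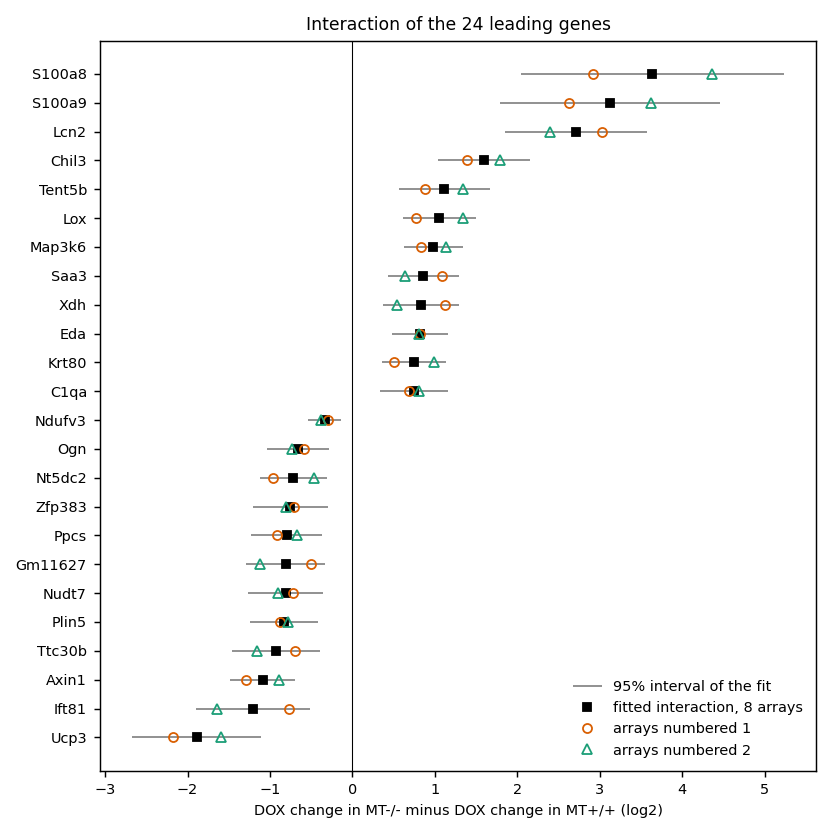
The interaction of each of the 24 leading genes is plotted in log2 units, with a square for the fit over 8 arrays, a bar for its 95% interval, a circle for the arrays numbered 1 and a triangle for those numbered 2. The choice of genes without overlap fixes that both numbers share a sign, and the fitted values run from -1.89 for Ucp3 to 3.64 for S100a8.

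Of the 12 upward leading genes, S100a8, S100a9, Lcn2 and Saa3 were on the neutrophil or acute-phase lists. Lcn2 encodes lipocalin 2, an iron-siderophore binding protein stored in neutrophil granules and released in the acute phase. Under saline it gave 104 and 139 in MT+/+ and 88.9 and 116 in MT-/-, and after DOX it gave 208 and 398 in MT+/+ and 1737 and 1912 after DOX in MT-/-. Both MT-/- DOX arrays thus stood above all others. Lcn2 rose 14.9-fold with DOX in MT-/- (adjusted p = 0.00056), while in MT+/+ the difference was 2.27-fold (adjusted p = 0.0615). The interaction was 2.71 ± 0.38 log2 units (SE, 2 arrays per group), and it was 3.03 within the arrays numbered 1 and 2.39 within those numbered 2. With the block it passed the threshold, and with the block and 1 array left out in turn it passed in 4 of 8 fits, with adjusted p from 0.0012 to 0.116.

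S100a8 and S100a9 encode the 2 subunits of calprotectin, the calcium- and zinc-binding protein that fills the cytoplasm of neutrophils. S100a8 gave 137 and 541 under saline and 238 and 273 after DOX in MT+/+, and 101 and 129 under saline and 1573 and 1508 after DOX in MT-/-. S100a9 gave 161 and 448, then 248 and 222 in MT+/+, and 133 and 129, then 1437 and 891 in MT-/-, saline first. For both genes the MT-/- DOX arrays were highest, and the second MT+/+ saline array stood above the other saline arrays. The interaction was 3.64 ± 0.70 for S100a8 and 3.13 ± 0.59 for S100a9, the largest and second largest positive values among the leading genes. Without the second MT+/+ saline array the values were 2.65 and 2.39, and without the first they were 4.63 and 3.86, where S100a8 had an adjusted p of 0.00223 in limma. That fit has a single MT+/+ saline array, which is assumed to vary like the arrays of the other groups.

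The other leading genes of this kind were dimmer. Chil3 and Saa3 reached the array median on the MT-/- DOX arrays alone. They therefore passed the filter on low signal only through the group where they were high. Chil3, a chitinase-like protein of macrophages and neutrophils, gave 24.4 and 31.8, then 81.2 and 67.7 in MT+/+, and 19.6 and 27.7, then 212 and 257 in MT-/-. It rose in both genotypes (adjusted p = 0.021 in MT+/+ and 0.00045 in MT-/-), with an interaction of 1.59 ± 0.24. Saa3, a serum amyloid A protein made outside the liver in inflammation, gave 74.9 and 74.2, then 56.1 and 68.1 in MT+/+, and 77.8 and 80.5, then 151 and 123 in MT-/-. The MT-/- pair rose (0.68, adjusted p = 0.0232) and the MT+/+ difference was -0.18. Serpina3n, an acute-phase protease inhibitor that lies outside the 24 because its unadjusted p of 0.00622 ranks lower, gave 123 and 242, then 199 and 378 in MT+/+, and 241 and 651, then 3002 and 3144 in MT-/-, an interaction of 2.27 ± 0.63.

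The promoter windows of these genes are shown because their signal was highest together on the 2 MT-/- DOX arrays. Each window is the RefSeq sequence of build GRCm38.p6 from 250 bases before to 50 after the gene's start, read 5' to 3' on the gene's own strand. The windows are Lcn2 at chr2:32387690-32387989 (minus strand), S100a8 at chr3:90668821-90669120 (plus), S100a9 at chr3:90695672-90695971 (minus), Chil3 at chr3:106167515-106167814 (minus) and Saa3 at chr7:46715627-46715926 (minus). Capitals mark matches on either strand to a STAT element (TTCNNNGAA), a C/EBP element (TTGCNNAAT) or a TATA box (TATAAA), and no matches overlapped. A STAT element was present in 8.30% of 32851 mouse promoter windows of this length, a C/EBP element in 2.40% and a TATA box in 13.6%.
Lcn2: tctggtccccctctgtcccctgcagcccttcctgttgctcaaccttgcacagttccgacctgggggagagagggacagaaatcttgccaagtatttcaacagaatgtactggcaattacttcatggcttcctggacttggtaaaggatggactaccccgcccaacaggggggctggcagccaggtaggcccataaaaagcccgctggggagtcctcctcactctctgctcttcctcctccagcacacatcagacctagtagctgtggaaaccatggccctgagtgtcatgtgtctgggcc
S100a8: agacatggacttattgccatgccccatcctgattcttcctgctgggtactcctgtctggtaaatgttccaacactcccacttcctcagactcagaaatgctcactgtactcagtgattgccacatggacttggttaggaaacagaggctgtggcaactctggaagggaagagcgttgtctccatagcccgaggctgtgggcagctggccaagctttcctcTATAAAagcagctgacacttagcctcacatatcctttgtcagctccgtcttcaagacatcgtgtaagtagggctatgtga
S100a9: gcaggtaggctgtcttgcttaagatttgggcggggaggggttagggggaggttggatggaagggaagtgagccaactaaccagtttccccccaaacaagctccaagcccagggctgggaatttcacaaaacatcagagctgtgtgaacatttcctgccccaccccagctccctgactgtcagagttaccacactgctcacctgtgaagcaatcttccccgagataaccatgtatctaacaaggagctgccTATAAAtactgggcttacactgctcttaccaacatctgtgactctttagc
Chil3: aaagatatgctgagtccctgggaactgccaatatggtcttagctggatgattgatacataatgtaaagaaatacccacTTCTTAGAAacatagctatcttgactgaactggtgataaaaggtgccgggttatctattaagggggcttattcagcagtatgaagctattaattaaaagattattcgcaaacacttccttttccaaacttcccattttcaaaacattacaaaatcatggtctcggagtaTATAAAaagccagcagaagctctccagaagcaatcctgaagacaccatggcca
Saa3: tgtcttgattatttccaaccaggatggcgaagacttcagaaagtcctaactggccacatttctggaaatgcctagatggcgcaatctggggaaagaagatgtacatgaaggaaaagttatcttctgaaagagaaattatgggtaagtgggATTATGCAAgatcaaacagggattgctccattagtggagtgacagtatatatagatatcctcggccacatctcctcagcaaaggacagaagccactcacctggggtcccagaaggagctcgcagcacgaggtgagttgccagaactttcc
Chil3 held 1 STAT element and 1 TATA box, S100a8 and S100a9 held 1 TATA box each, Saa3 held 1 C/EBP element, and Lcn2 held no match to any of these letters within the window. A match is a description of the letters and not a site of binding.

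Neutrophil markers as a list showed a split. Of 14 listed genes 11 were measured, and 4 of them (S100a8, S100a9, Lcn2 and Mmp8) had a higher DOX change in MT-/- at an unadjusted p under 0.05, against 147 of 13008 genes in that direction (1.13%) and 178 in the other (1.37%). Mmp8, a neutrophil collagenase, gave 43.1 and 58.4, then 53.7 and 70.9 in MT+/+, and 46.3 and 46.8, then 126 and 109 in MT-/-. It reached the array median on the MT-/- DOX arrays alone, so it passed the filter only through the group where it was high. The median interaction of the 11 was 0.23, beside -0.0021 over all genes, and it ran from 0.15 to 0.57 over the alternative settings. Ltf was on the array and below the filter. The other 7 measured markers had interactions of 0.57 for Ngp, 0.23 for Elane, 0.17 for Csf3r, 0.14 for Cxcr2, 0.13 for Mmp9, -0.05 for Mpo and -0.17 for Camp. The deposited signal summed over the 11 markers was 1486 to 2317 on the 6 arrays of the other groups and 5533 to 6103 on the MT-/- DOX arrays. S100a8, S100a9 and Lcn2 made up 4311 to 4747 of the latter. The other 8 markers summed to 1112 to 1186 under saline and 1223 to 1356 after DOX in MT-/-. In MT+/+ these 8 summed to 1189 to 1416 under saline and 1234 to 1240 after DOX. In whole hearts more cells of a type and more RNA per cell cannot be told apart, and the part of neutrophil number in the result was not tested.

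**Figure D3:**
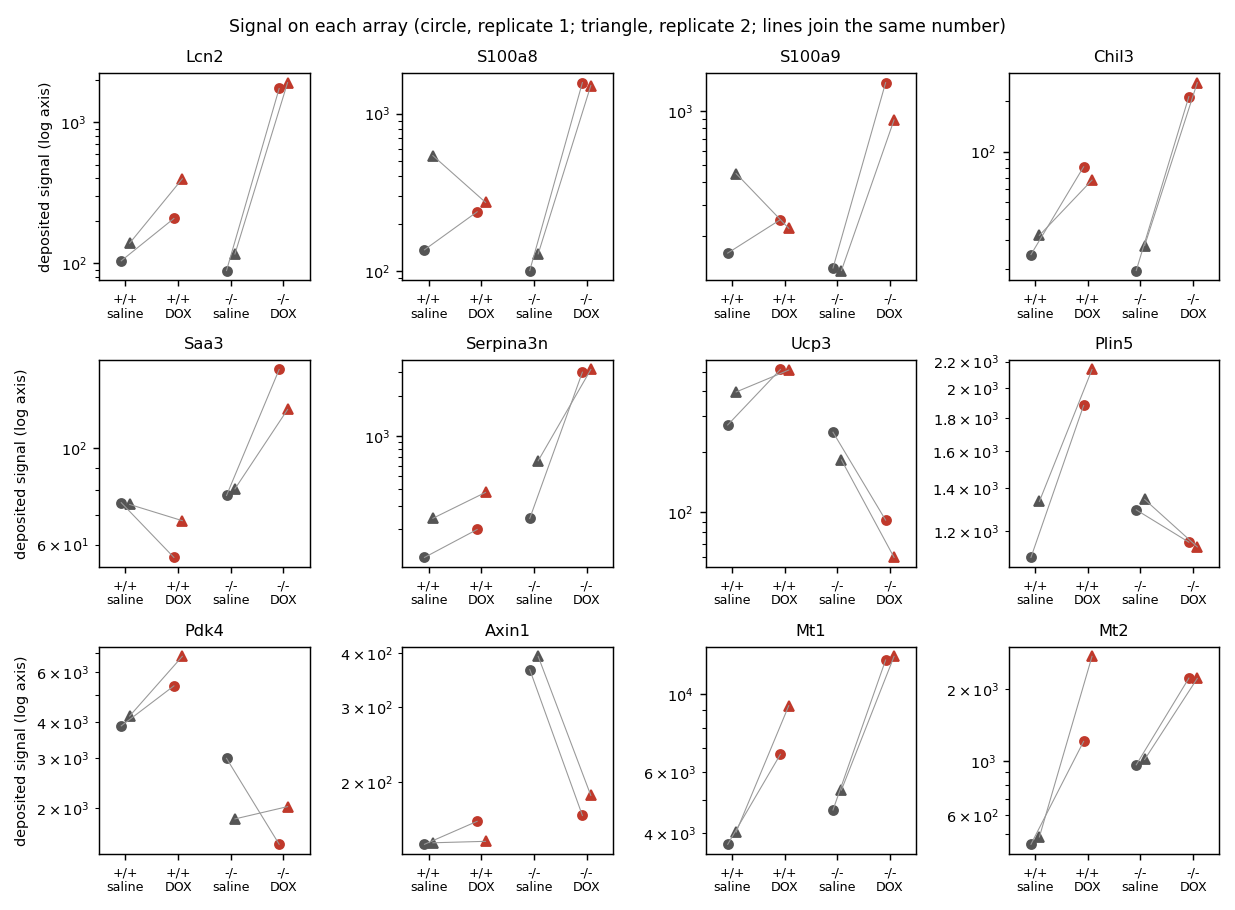
Deposited signal (log axis) of 12 genes is plotted for every array in the 4 groups, with circles for replicate 1, triangles for replicate 2, and lines joining arrays of the same number. Lcn2, S100a8, S100a9, Chil3, Saa3 and Serpina3n are highest on the MT-/- DOX arrays, and Ucp3 is lowest there.

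Acute-phase and inflammatory genes had a median interaction of 0.23 over 16 measured members. Lcn2, Serpina3n, Saa3 and Stat3 were higher at an unadjusted p under 0.05 (1.13% of all genes) and 0 were lower, and 15 of the 16 values were positive (49.6% of all genes). Saa3 passed the filter only through the MT-/- DOX arrays. Stat3, the transcription factor that carries interleukin-6 signals, gave 759 and 770, then 778 and 896 in MT+/+, and 803 and 873, then 1263 and 1246 in MT-/-. It rose in MT-/- (0.58, adjusted p = 0.033) with a difference of 0.04 in MT+/+, while other Stat3 probe sets gave interactions of 0.80 and -0.14. The list's median change with DOX was 0.30 in MT-/- and 0.01 in MT+/+, and its median interaction was 0.13 without the first MT+/+ DOX array and 0.43 without the second.

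The estimated fall of macrophage markers with DOX was smaller in MT-/-. All 15 measured markers had a positive interaction (49.6% of all genes), with a median of 0.32. Their median DOX change was -0.84 in MT+/+ and -0.38 in MT-/-. C1qa, a chain of the complement protein that tissue macrophages make, gave 1877 and 2070, then 901 and 1077 in MT+/+, against 1735 and 1762, then 1319 and 1505 in MT-/-. It fell in MT+/+ (-1.08, adjusted p = 0.00719), the MT-/- difference was -0.33, and the interaction was 0.75 ± 0.18. Ctss, a lysosomal protease, Fcgr3, an antibody receptor, and Cd68, a lysosomal membrane protein, had interactions of 0.72, 0.69 and 0.61. Cd163, the haemoglobin-haptoglobin receptor, is the fifth marker with an unadjusted p under 0.05 (0.59) and was named after its value was seen. Of all genes, 1.13% were higher at that threshold. The summed signal of the 15 markers was 11591 to 13591 on the MT+/+ saline arrays, 6369 to 7396 after DOX in MT+/+, 10968 to 13072 on the MT-/- saline arrays and 7951 to 8481 after DOX in MT-/-.

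Chemokines had 0 of 15 measured members at an unadjusted p under 0.05 in either direction and 7 without overlap, all upward (7.06% of all genes), with a median interaction of 0.28, which was 0.09 when the probe sets of a gene were averaged. Ccl6, Ccl9 and Ccl12, which attract monocytes, and Cxcl12, which retains leukocytes in tissue, had values of 0.58, 0.38, 0.34 and 0.35. Other probe sets gave 0.37 for Ccl6, 0.24 for Ccl9, and -0.03 and -0.06 for Cxcl12. For Ccl12 the signal was 199 and 184, then 122 and 127 in MT+/+, and 156 and 151, then 132 and 118 in MT-/-. It fell in MT+/+ (adjusted p = 0.0364), and the MT-/- difference was -0.24. Interferon-induced genes had 0 of 23 at an unadjusted p under 0.05 and a median of 0.27, but the median was 0.79 in the arrays numbered 1 and -0.25 in those numbered 2. Their values therefore had no common direction across the replicate numbers, as Bst2 shows with 1.32 and 0.00. The summed signal of the interferon list reached 21301 on 1 MT+/+ saline array and 13383 on the other.

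**Figure D4:**
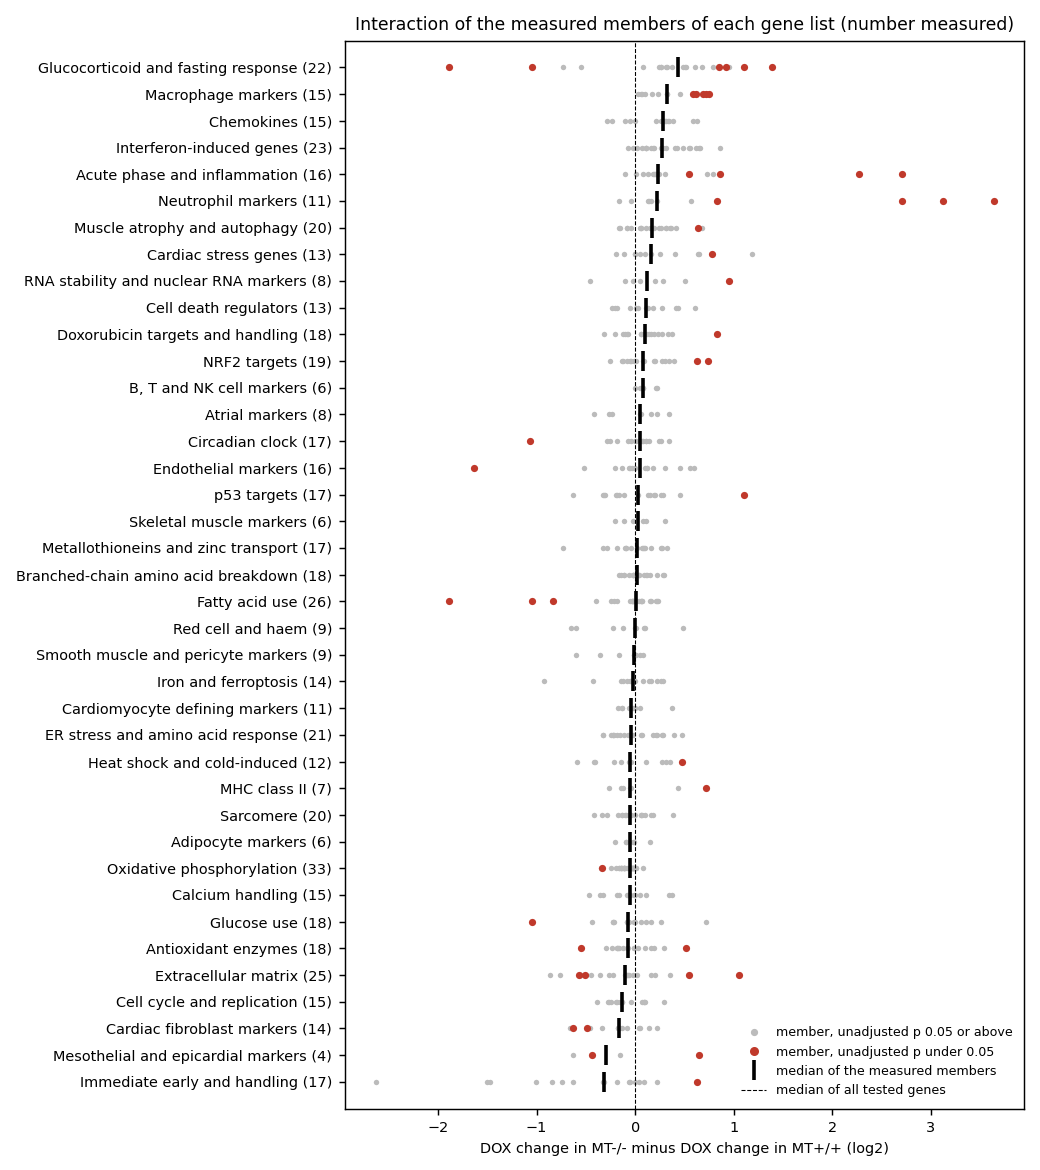
Every measured member of 39 gene lists is plotted by its interaction (log2), with red for an unadjusted p under 0.05, a black bar for the list's median and a dashed line for the median of all tested genes. Macrophage markers lie wholly to the right of 0, and the fatty acid list has 3 members far to the left with a median of 0.00.

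Of the 12 downward leading genes, Ucp3 and Plin5 were on the list of fatty acid use. Ucp3, a mitochondrial carrier of muscle that rises in fasting, gave 272 and 396 under saline and 513 and 510 after DOX in MT+/+, and 250 and 182 under saline and 91.5 and 59.7 after DOX in MT-/-. Both DOX arrays were above both saline arrays in MT+/+ and below them in MT-/-. Ucp3 fell in MT-/- (-1.31, adjusted p = 0.0171), the MT+/+ difference was 0.58 (adjusted p = 0.272), and the interaction was -1.89 ± 0.34. A separate Ucp3 probe set gave -0.82. Between the DOX groups Ucp3 differed by -2.52 log2 units, lower in MT-/- (adjusted p = 0.0045).

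Plin5, which coats lipid droplets beside mitochondria, gave 1094 and 1336, then 1881 and 2139 in MT+/+, and 1296 and 1345, then 1155 and 1135 in MT-/-. It rose in MT+/+ (0.64, adjusted p = 0.0446), the MT-/- difference was -0.19, and the interaction was -0.83 ± 0.18, with -0.62 from a separate probe set. Pdk4, the kinase that shuts pyruvate out of oxidation in fasting, gave 3891 and 4216, then 5379 and 6830 in MT+/+, and 2992 and 1833, then 1493 and 2025 in MT-/-. Its DOX change passed the threshold in neither genotype, and its interaction was -1.05 ± 0.36. These are the 3 of 26 measured fatty acid genes that were lower at an unadjusted p under 0.05 (1.37% of all genes), and 0 were higher (1.13%). The median of the list was 0.00, and 14 of the 26 values were positive, so the list as a whole did not follow these members.

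Enzymes of coenzyme A were also among the leading genes. Ppcs, which acts in coenzyme A synthesis, gave 117 and 140, then 157 and 182 in MT+/+, and 165 and 172, then 115 and 124 in MT-/-, an interaction of -0.80 ± 0.19. Nudt7, a peroxisomal enzyme that breaks coenzyme A down, gave 1154 and 1297, then 1434 and 1531 in MT+/+, and 1311 and 1383, then 926 and 779 in MT-/-, an interaction of -0.81 ± 0.20. Nudt7 fell in MT-/- (adjusted p = 0.0336), and its other probe sets gave -0.84, -0.43 and -0.01. Ppcs changed past the threshold in neither genotype.

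Oxidative phosphorylation genes had small values that mostly pointed down. The median over 33 measured subunits was -0.05, 29 of the values were negative (50.4% of all genes), and 10 did not overlap, all downward (6.88% of all genes). Over the alternative settings the median stayed negative, from -0.11 to -0.03. Cox7a1, a heart and muscle subunit of cytochrome oxidase, was the member with an unadjusted p under 0.05 (1.37% of all genes were lower at that threshold). It gave 9394 and 9254, then 6755 and 7546 in MT+/+, and 8588 and 8952, then 5107 and 6038 in MT-/-, an interaction of -0.33 ± 0.12. Ndufv3, a small subunit of complex I, which was not on that list, fell in both genotypes (-0.34 and -0.68, adjusted p = 0.0327 and 0.0012), an interaction of -0.34 ± 0.09. The summed signal of the 33 subunits in MT+/+ was 291886 to 291895 under saline and 264885 to 272915 after DOX. In MT-/- it was already lower under saline, 279465 to 284963, and was 248603 to 254658 after DOX. The 11 markers of heart muscle cells, which are rich in mitochondria, had a median interaction of -0.04. Quantile normalization limits how far the brightest probe sets can differ between arrays. The changes of Myl2, one of these markers, came out as 0 in both genotypes. That step can fix such a value, so it says nothing of Myl2 itself. The part of cell content in the shift of the subunits was not tested.

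Genes that glucocorticoids and fasting induce had a median interaction of 0.43 over 22 measured members, the highest of the 39 lists over all arrays and in 4 of 8 fits with 1 array left out. Zbtb16, Cdkn1a, Fkbp5 and Ddit4 were higher at an unadjusted p under 0.05 (1.13% of all genes), and Ucp3 and Pdk4 were lower (1.37%). Zbtb16, a zinc finger repressor that glucocorticoids induce, gave 437 and 938, then 1276 and 1924 in MT+/+, and 376 and 286, then 1658 and 2652 in MT-/-. It rose in MT-/- (2.60, adjusted p = 0.00586), and the MT+/+ difference did not pass (adjusted p = 0.134). The interaction was 1.39, and separate Zbtb16 probe sets gave 1.13 and 0.42. Fkbp5, a chaperone of the glucocorticoid receptor named after its value was seen, rose in both genotypes, 3.34-fold in MT+/+ and 6.34-fold in MT-/-. Its signal was 235 and 261, then 663 and 1186 in MT+/+, and 239 and 235, then 1292 and 2036 in MT-/-. Ddit4, an inhibitor of mTOR signalling, rose in MT-/- (1.53, adjusted p = 0.00403) with a difference of 0.69 in MT+/+. The list's median DOX change was 1.14 in MT-/- and 0.68 in MT+/+, and without the second MT-/- DOX array its median interaction was 0.21, without the first 0.71, and without the first MT+/+ DOX array 0.22.

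**Figure D5:**
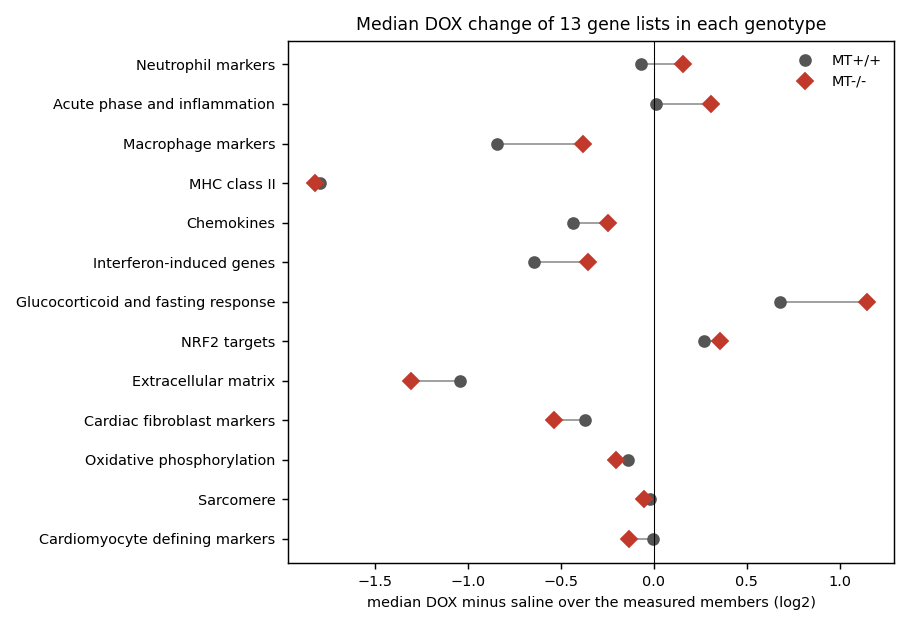
For 13 gene lists the median DOX minus saline difference of the measured members (log2) is plotted as a circle for MT+/+ and a diamond for MT-/-. The macrophage list sits at -0.84 and -0.38, and the glucocorticoid and fasting list at 0.68 and 1.14.

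Among leading genes of other kinds, Map3k6, a stress-activated protein kinase kinase kinase, gave 73.3 and 79.4, then 177 and 182 in MT+/+, and 57.0 and 51.9, then 283 and 307 in MT-/-. It rose in both genotypes (adjusted p = 0.0050 and 0.00016), with an interaction of 0.98 ± 0.16. Lox, the enzyme that crosslinks collagen, gave 129 and 149, then 190 and 189 in MT+/+, and 151 and 151, then 408 and 498 in MT-/-, an interaction of 1.05 ± 0.19 with 1.12 from a separate probe set. Xdh, xanthine dehydrogenase, which makes uric acid and can reduce anthracyclines, rose in both genotypes (0.94 and 1.77) with an interaction of 0.83 ± 0.20. Eda, a ligand of the tumour necrosis factor family, rose in MT-/- (1.07) with an interaction of 0.82 ± 0.15, but a separate Eda probe set gave 0.05. Tent5b, a poly(A) polymerase, and Krt80, a keratin, rose in MT-/- (1.30 and 0.78), with interactions of 1.11 and 0.75.

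For a few leading genes the genotypes already differed without DOX. Axin1, a scaffold of the complex that degrades beta-catenin, gave 143 and 145, then 162 and 146 in MT+/+, and 366 and 393, then 167 and 186 in MT-/-. The MT-/- saline arrays alone stood high, by 1.27 log2 units over MT+/+ saline (adjusted p = 0.00636), and after DOX the genotypes differed by 0.18. Ift81, a protein of ciliary transport, gave 890 and 977, then 733 and 1259 in MT+/+, and 2511 and 3166, then 1190 and 1227 in MT-/-, and the saline groups differed (adjusted p = 0.0446). Interactions were -1.09 ± 0.17 for Axin1 and -1.21 ± 0.31 for Ift81, yet other probe sets gave 0.21 for Axin1 and -1.02 and 0.36 for Ift81. Nt5dc2 and Gm11627 followed the same order of signals with saline differences of 0.62 and 0.88 that did not pass the threshold. Ttc30b, another protein of ciliary transport, gave 244 and 270, then 276 and 303 in MT+/+, and 225 and 261, then 153 and 107 in MT-/-. It fell in MT-/- (adjusted p = 0.0272), with an interaction of -0.93 ± 0.23. Zfp383, a zinc finger protein, had an interaction of -0.76 ± 0.20 and a DOX change past the threshold in neither genotype.

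Matrix genes had negative DOX changes at the median in both genotypes. Over 25 measured matrix genes it was -1.04 in MT+/+ and -1.30 in MT-/-. The median interaction was -0.10 (from -0.27 to -0.01 over the alternative settings), and 19 of the values were negative (50.4% of all genes). Lox and Timp3, an inhibitor of metalloproteases, were higher in MT-/- at an unadjusted p under 0.05 (1.05 and 0.54, with 0.24 to 0.66 from other Timp3 probe sets), and the collagens Col8a1 and Col15a1 were lower (-0.57 and -0.51). At that threshold 1.13% of all genes were higher and 1.37% lower. Ogn, a small proteoglycan, fell in both genotypes, from 1733 and 1957 to 1224 and 1320 in MT+/+ and from 1675 and 2017 to 736 and 749 in MT-/-. Its interaction was -0.66 ± 0.16, and a separate probe set gave -0.75. Of 14 fibroblast markers Dpt and Serpinf1, both secreted matrix-associated proteins, were lower (-0.63 and -0.48) and 0 were higher, with a median of -0.16. That median was -0.07 without the second MT-/- saline array and -0.27 without the first. The summed signal of the fibroblast markers was 20723 to 22251 under saline and 17377 to 18533 after DOX in MT+/+. In MT-/- it was 22390 to 26831 under saline and 18116 to 18933 after DOX.

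Genes of oxidant defence and cell stress differed for a few members. Of 19 measured NRF2 targets, Hmox1 and Gclm were higher in MT-/- at an unadjusted p under 0.05 (1.13% of all genes) and 0 were lower (1.37%). The median of the list was 0.08. Hmox1, haem oxygenase, gave 116 and 123, then 144 and 189 in MT+/+, and 136 and 116, then 251 and 376 in MT-/-. It rose in MT-/- (1.17, adjusted p = 0.0105) with a difference of 0.44 in MT+/+, and the interaction was 0.74 ± 0.27. Nqo1, a quinone reductase, rose in both genotypes (1.45 and 1.72), with an interaction of 0.27 ± 0.22. Gclm, which serves glutathione synthesis, had 0.63, and a separate probe set 0.34. Of 18 antioxidant enzymes Gpx3 was higher (0.52) and Glrx lower (-0.55), with a median of -0.07. Cdkn1a, the p53-induced inhibitor of the cell cycle, gave 565 and 534, then 752 and 1423 in MT+/+, and 423 and 434, then 1285 and 2182 in MT-/-, an interaction of 1.10 ± 0.41. It ran from 0.66 to 1.54 with 1 array left out, and a separate Cdkn1a probe set gave 0.54. Cdkn1a was the member of 17 measured p53 targets with an unadjusted p under 0.05, and the median of that list was 0.03. Top2a and Top2b, the targets of DOX, had interactions of 0.09 ± 0.19 and -0.07 ± 0.18.

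Of 13 measured heart muscle stress genes, 1 was higher in MT-/- at an unadjusted p under 0.05 (1.13% of all genes) and 0 were lower (1.37%). Their median interaction was 0.16, and 10 of the values were positive (49.6% of all tested genes). Myh7, the slow myosin heavy chain that returns in stressed mouse heart, gave 198 and 194, then 13256 and 14751 in MT+/+, and 274 and 314, then 15772 and 17349 in MT-/-. It rose 65.3-fold in MT+/+ and 57.2-fold in MT-/-, and the interaction was -0.19 ± 0.17 with a 95% interval from -0.58 to 0.20. Acta1, skeletal alpha-actin, fell in both genotypes (-1.78 and -1.89), with an interaction of -0.11 ± 0.40. The natriuretic peptides Nppa and Nppb had interactions of 0.05 ± 0.35 and 0.64 ± 0.55, and Nppb reached 10131 on the second MT-/- DOX array against 5633 on the first. Ankrd1, a stretch-responsive cofactor, was the member with an unadjusted p under 0.05, rising 1.08 in MT+/+ and 1.86 in MT-/- (interaction 0.78 ± 0.28, and 0.76 from a separate probe set). Without the second MT-/- DOX array the median of the list was 0.06, and without the first it was 0.35. Sarcomere genes had a median of -0.05 over 20 and 0 at an unadjusted p under 0.05.

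Of the metallothionein genes, Mt1 rose with DOX on the arrays of both labels and Mt2 on those labelled MT+/+. Mt1 gave 3722 and 4034, then 6735 and 9285 in MT+/+, and 4667 and 5322, then 12549 and 12850 in MT-/-. The rise was 1.02 and 1.34 (adjusted p = 0.00719 and 0.0012), with an interaction of 0.32 ± 0.17, and a dimmer Mt1 probe set gave -0.27. Mt2 gave 452 and 485, then 1210 and 2732 in MT+/+, and 968 and 1018, then 2218 and 2213 in MT-/-. Its rise in MT+/+ was 1.85 (adjusted p = 0.0190), the MT-/- difference was 1.12 (adjusted p = 0.0634), and the interaction was -0.73 ± 0.42. With 1 array left out, the interaction of Mt2 ran from -1.30 to -0.16. Their factor Mtf1 and the zinc exporter Slc30a1, which MTF1 induces, had interactions of 0.16 ± 0.19 and 0.10 ± 0.18. None of 17 measured metallothionein and zinc transport genes had an unadjusted p under 0.05, and their median was 0.02.

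The promoters of the 2 metallothionein genes are shown because these genes define the groups. They are the RefSeq windows of GRCm38.p6 at chr8:94178839-94179138 for Mt1 and chr8:94172368-94172667 for Mt2, both on the plus strand. Capitals mark matches on either strand to TGCNCNC, a looser pattern than the metal response core TGCRCNC (R is A or G).
Mt1: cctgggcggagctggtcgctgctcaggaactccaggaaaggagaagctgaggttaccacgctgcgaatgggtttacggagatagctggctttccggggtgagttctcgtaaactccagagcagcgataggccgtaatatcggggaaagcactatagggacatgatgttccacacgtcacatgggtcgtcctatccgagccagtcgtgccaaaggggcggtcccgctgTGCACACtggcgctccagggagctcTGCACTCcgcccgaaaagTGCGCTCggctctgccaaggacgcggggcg
Mt2: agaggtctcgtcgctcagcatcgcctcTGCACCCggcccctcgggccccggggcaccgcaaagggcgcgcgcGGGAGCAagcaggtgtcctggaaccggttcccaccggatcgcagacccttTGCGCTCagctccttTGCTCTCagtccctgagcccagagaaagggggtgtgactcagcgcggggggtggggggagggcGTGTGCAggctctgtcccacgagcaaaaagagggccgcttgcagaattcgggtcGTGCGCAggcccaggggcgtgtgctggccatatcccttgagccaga
The looser pattern occurred 3 times in the Mt1 window and 6 times in the Mt2 window, with no overlaps. Of all mouse promoter windows, 51.0% held at least 1 match to it. The Mt2 matches include TGCTCTC, which has T where the core has A or G.

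Immediate early genes had a median of -0.32 over 17, the lowest of the 39 lists over all arrays and in 4 of 8 fits with 1 array left out. Fos gave 41.7 and 82.9, then 189 and 159 in MT+/+, and 65.5 and 1045, then 77.5 and 127 in MT-/-, an interaction of -2.63 ± 1.27. Nr4a1 gave 297 and 2105 and Dusp1 gave 1261 and 3064 on the MT-/- saline arrays, so the second of these stood high for all 3 genes. Without that array the median of the list was 0.02, without the first MT-/- DOX array -0.08 and without the second MT+/+ DOX array -0.11. Ier3, another early gene, was the member with an unadjusted p under 0.05 (0.63), against 1.13% of all genes higher at that threshold. Among 17 measured clock genes Dbp was lower at an unadjusted p under 0.05 (1.37% of all genes). Dbp gave 109 and 120, then 523 and 410 in MT+/+, and 154 and 86.2, then 234 and 210 in MT-/-. Its interaction was -1.07 ± 0.33, and a separate probe set gave -0.83. Aplnr, the apelin receptor of endothelium, fell in both genotypes, from 379 and 503 to 87.5 and 36.8 in MT+/+ and from 1137 and 1062 to 46.1 and 29.9 in MT-/-. The interaction was -1.64 ± 0.44, with -0.89 from a separate probe set. Its saline signal was already higher in MT-/-, and its signal after DOX was dim in both genotypes. The median of the 16 endothelial markers was 0.05, so Aplnr stood apart from them in size.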

How the data were processed

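Per the submitters' processing notes, the deposited values were made with GCOS 1.4 and are 1 linear intensity per probe set and array. The signal algorithm and scaling target were not given in the sources used here. Biotin-labelled cRNA came from 2 µg of total RNA, per the labels' protocols. The deposited table was the single source of values, and printed signals are as deposited.

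Arrays were quantile-normalized and tested as log2(intensity + 16), the scale of each log2 change and fold, on which dim probe sets change too little. The filter kept probe sets that reached the array median on at least 2 arrays. The fit was limma 3.58.1 in R 4.3.3 on 4 group means, with a mean-variance trend, 4 residual and 4.66 prior degrees of freedom. Each p-value is two-sided, from limma, and adjusted p-values are by Benjamini-Hochberg over 24751 probe sets at a threshold of 0.05. An error after ± is the standard error of the fit.

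The replicate numbers pair the arrays by the data, since the labels name them only as replicates: over the 6 pairs of groups, deviations from the group means correlated at 0.360 to 0.542, all above 0.1. The block enters as a term, leaving 3 residual degrees of freedom.

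In the platform annotation 34945 probe sets had 1 symbol (34741 of them matched RefSeq by Entrez number), 932 had several and 9160 had none. A gene was represented by its brightest tested probe set. Named genes were the 12 leading genes of each direction, genes past the threshold with the block, a fixed set (Mt1, Mt2, Mtf1, Slc30a1, Nppa, Nppb, Myh7, Acta1, Cdkn1a, Top2a, Top2b, Hmox1, Nqo1, Lcn2, S100a8 and S100a9), and up to 4 members with the smallest p in each of 39 gene lists. Members and lists were chosen with earlier results of these data known. The fit was tested on simulated data. Alternatives changed the scaling, pseudocount (1 or 64), filter (none or the 60th percentile), variance model, array weights, probe set averaging, block, and 1 array left out in turn.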

Additional observations from a re-analysis of the deposited data

Results flagged for a closer look

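Lcn2 is listed because the difference of its DOX changes passed a test, with an interaction of 2.71 log2 units and an adjusted p of 0.0222 in limma with the replicate block, and with the block and 1 array left out it passed in 4 of 8 fits.

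A further 7 of the named genes are listed because both DOX arrays lay on one side of both saline arrays in MT+/+ and on the opposite side in MT-/-. For these the test of the difference itself, in the fits over all arrays, gave no adjusted p under 0.05 in limma, with or without the block. That did not hold for all of these genes in every fit with 1 array left out, where a group rests on a single array. Ucp3, the uncoupling protein of muscle, had an interaction of -1.89. Ttc30b, of ciliary transport, had -0.93. Saa3, of the acute phase, had 0.86, the positive value among these 7, and it passed the filter only through the MT-/- DOX arrays. Plin5, of lipid droplets, had -0.83. Nudt7 and Ppcs, both enzymes of coenzyme A, had -0.81 and -0.80. Zfp383, a zinc finger protein, had -0.76.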

How the results depend on the processing

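With 2 arrays per group, precision is set by the number of arrays, and dim probe sets near the filter carry the least signal over background. Without the replicate block, the count of interaction calls was 0 under every scaling, pseudocount, filter, variance model and array weighting tried; the smallest adjusted p in limma ran from 0.305 (no filter) to 0.9996 (stricter filter) among these, and unadjusted calls at p under 0.05 from 480 (stricter filter) to 1237 (no filter, deposited scaling and pseudocount 1). With 1 array left out the count ran from 0 to 1 without the block (S100a8, without the first MT+/+ saline array) and from 0 to 67 with it, 67 being without the first MT-/- DOX array.

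With the replicate block, in the order interaction, DOX in MT+/+, DOX in MT-/- and DOX averaged, the calls were 1, 2740, 4188 and 6702, and in each such setting the single interaction call was Lcn2. With the block they were 1, 2599, 4224 and 6421 under the deposited scaling, 1, 2744, 4176 and 6710 with pseudocount 1, 1, 2675, 4192 and 6659 with pseudocount 64, 1, 2742, 4024 and 6324 with the stricter filter, and 1, 2643, 4066 and 6562 without the trend. The block changed no other interaction call. With 1 array left out, over fits with and without the block, calls ran from 23 to 3827 for DOX in MT+/+, from 376 to 4599 for DOX in MT-/-, and from 1753 to 6891 for DOX averaged, and the share of averaged calls with the larger change in MT-/- ran from 55.8% to 81.9%. Averaging the probe sets of a gene, which leaves 13008 features to test, gave 1021 calls for DOX in MT-/- and 2183 for DOX averaged.

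Of the 77 genes followed, 71 kept the sign of their interaction in every setting. With 1 array left out, without the block, the interaction of 31 of them moved by over 1.5 times. Nppa turned to -0.034 with the deposited scaling (with and without the block), -0.050 with median centring and -0.037 with no filter, deposited scaling and pseudocount 1. It ran from -0.26 to 0.36 with 1 array left out without the block, and from -0.39 to 0.49 over all settings. Top2a turned to -0.040 and Slc30a1 to -0.056 when probe sets were averaged. With 1 array left out without the block, Acta1 ran from -0.63 to 0.41, Top2a from -0.058 to 0.23 and Top2b from -0.16 to 0.026. Nppb ran from 0.19 to 1.08 in those fits and from -0.16 to 1.43 over all settings. The cause of these turns was not tested.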

Other observations

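Further genes named by the rule came from separate lists. Clu, a secreted chaperone that heart cells make under stress, gave 2867 and 3600, then 3722 and 4943 in MT+/+, and 2845 and 3247, then 6422 and 6609 in MT-/-. It rose in MT-/- (1.08, adjusted p = 0.0031 in limma), the MT+/+ difference was 0.42, and the interaction was 0.65 ± 0.18. Sqstm1, the autophagy receptor p62, rose in both genotypes (0.90 and 1.54), with an interaction of 0.64 ± 0.20 (0.27 from a dimmer probe set). It was the member of 20 measured atrophy and autophagy genes with an unadjusted p under 0.05 (1.13% of all genes were higher at that threshold). Hspb1, a small heat shock protein, gave 5903 and 5863, then 4640 and 4497 in MT+/+, and 6581 and 7214, then 6475 and 8955 in MT-/-, an interaction of 0.48 ± 0.18. Malat1, a nuclear long RNA, had an interaction of 0.95 ± 0.36, and the genotypes differed in its level by -0.95 under saline and by 0.00 under DOX, while its other probe sets gave interactions from -0.14 to 1.22. Ccn2, a matrix-associated growth factor, rose in MT-/- (3.24, adjusted p = 0.0110), and the MT+/+ difference was 2.05 (adjusted p = 0.0882). Its interaction was 1.19 ± 0.75 (unadjusted p = 0.149 in limma), with 11151 on the second MT-/- DOX array against 2549 on the first.

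The probe set 1435761_at, to which the annotation gave no single symbol, was chosen after its values were seen. It gave 15.9 and 23.98, then 24.4 and 18.7 in MT+/+, and 14.8 and 19.4, then 134 and 253 in MT-/-, an interaction of 2.53 ± 0.37 with an unadjusted p of 9.8e-05. Its adjusted p was 0.901 and, with the block, 0.140. The probe set reached the array median on the MT-/- DOX arrays alone, so it passed the filter only through that group.

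Arrays numbered 2 differed from those numbered 1 in the same direction in all 4 groups for 5161 of the 13008 genes (39.7%). The largest mean differences upward were 1.36 log2 units for Hspa1a, 1.15 for Efhd2 and 1.11 for Prg4, and the largest downward were -1.24 for AI661453, -1.08 for Vapb and -1.06 for Cep41.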
